A study of Mus musculus with 11 samples.

Results

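The genes described here encode the nuclear subunits of the mitochondrial respiratory chain and ATP synthase, together with a few proteins named after them. They were chosen by symbol from the GRCm38 annotation: protein-coding genes beginning with Nduf, Uqcr, Cox4, Cox5, Cox6, Cox7, Cox8 or Atp5, plus Sdha, Sdhb, Sdhc, Sdhd and Cyc1. The rule gave 95 gene identifiers of the 55487 in the deposited tables, and 93 of them had at least 10 reads over the 11 hearts and were tested. Cox8c, with 1 read in all hearts together, and a second identifier of Atp5o, with 0 reads, failed that filter. The symbols also bring in 8 assembly factors of complex I (the Ndufaf genes) and 3 related proteins (Ndufa4l2, Cox7a2l and Atp5s). None of these is a standing subunit. The assembly factors are kept apart below, while Ndufa4l2 and Cox7a2l are counted with complex IV and Atp5s with complex V.

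RNA was sequenced from whole hearts of 5 Pde2A-/- and 6 Pde2A+/+ mouse embryos at E14.5, 1 library per heart. Both genotypes come from the line labelled B6; 129P2-Pde2A < tm1Dgen>, a constitutive knockout bred by crossing heterozygotes, and neither received any treatment. Pde2A is the phosphodiesterase that cGMP stimulates to break down cAMP and cGMP. Hearts carry the replicate names A, B, 14, D and 15 (Pde2A-/-) and 7, 11, 6, 8, H and E (Pde2A+/+), and neither litter nor sex is given for single hearts. The comparison asks how the mRNA of these genes differs between hearts with and without the enzyme. The libraries held 35865537 to 42835382 reads counted on genes, and levels are given as CPM, the reads of a gene scaled to a common library size after TMM normalization. Pde2a itself had 0 to 2 reads in each library of either genotype, as had Gm45837, a gene annotated over it on the same strand, so it gives no check of the genotype labels. Cardiomyocyte markers were abundant in both genotypes, with 18 of 18 tested and a summed level of 42074 to 47677 CPM in Pde2A-/- and 42417 to 57319 CPM in Pde2A+/+ hearts.

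The respiratory chain moves electrons from NADH (complex I) and succinate (complex II) through coenzyme Q, complex III and cytochrome c to oxygen at complex IV, and complex V uses the resulting proton gradient to make ATP. All of complex II and most subunits of the others are encoded in the nucleus, while a small core of complexes I, III, IV and V is encoded in mitochondrial DNA. Several complex IV subunits exist as alternative forms that are used in striated muscle, lung, testis or at low oxygen. The heart depends on this machinery more and more as it matures towards birth.

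Promoters of these genes are known for sites of the factors NRF1 and GABPA (an ETS factor). RefSeq promoter windows (GRCm38.p6, 250 bases before to 50 bases after a start) were found for 74 of the 95 identifiers. The NRF1 core GCGCATGCG, on either strand, stood in the windows of 10 of 74 members (13.5%) against 1.95% of the 27025 genes in the table. The ETS core CCGGAAG stood in 18 of 74 (24.3%) against 9.93%. The core of the estrogen-related receptor site, AAGGTCA, stood in 8 (10.8%) against 5.38%, the cAMP response element TGACGTCA in 4 (5.41%) against 2.03%, and the hypoxia response core ACGTG in 17 (23.0%) against 21.8%. Among the 23 members with a window that were lower in Pde2A-/- hearts, 4 held the NRF1 core and 7 the ETS core. The core of the estrogen-related receptor site stood in 3 of the 23, the hypoxia response core in 6 and the cAMP response element in 2. These are matches of letters, and no binding was measured. The 250 bases before the start are shown for 4 genes that were lower in Pde2A-/- hearts and that hold an NRF1 or ETS core there. Those of Ndufa11 also hold the cAMP response element, which is not marked. Capitals mark the NRF1 core (2 overlapping matches on opposite strands) in Ndufaf4 (chr4:24897833-24898082, plus strand) and Ndufa11 (chr17:56717512-56717761, plus strand), and the ETS core in Ndufaf8 (chr11:120098684-120098933, plus strand) and, as its reverse complement, in Atp5e (chr2:174464102-174464351, minus strand).
Ndufaf4: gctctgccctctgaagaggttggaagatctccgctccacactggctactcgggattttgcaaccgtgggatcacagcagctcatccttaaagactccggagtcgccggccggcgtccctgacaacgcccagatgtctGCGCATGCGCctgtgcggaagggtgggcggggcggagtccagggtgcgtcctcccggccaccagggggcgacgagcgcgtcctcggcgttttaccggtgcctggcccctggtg
Ndufa11: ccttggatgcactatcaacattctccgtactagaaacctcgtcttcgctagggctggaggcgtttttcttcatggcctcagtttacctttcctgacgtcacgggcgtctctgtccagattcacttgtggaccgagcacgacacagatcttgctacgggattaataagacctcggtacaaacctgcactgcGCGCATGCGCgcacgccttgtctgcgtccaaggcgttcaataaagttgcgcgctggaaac
Ndufaf8: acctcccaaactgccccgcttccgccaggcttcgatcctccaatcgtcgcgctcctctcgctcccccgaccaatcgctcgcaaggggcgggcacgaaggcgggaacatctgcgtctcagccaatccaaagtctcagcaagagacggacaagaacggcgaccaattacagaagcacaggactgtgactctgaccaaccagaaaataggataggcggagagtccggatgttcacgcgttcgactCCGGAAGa
Atp5e: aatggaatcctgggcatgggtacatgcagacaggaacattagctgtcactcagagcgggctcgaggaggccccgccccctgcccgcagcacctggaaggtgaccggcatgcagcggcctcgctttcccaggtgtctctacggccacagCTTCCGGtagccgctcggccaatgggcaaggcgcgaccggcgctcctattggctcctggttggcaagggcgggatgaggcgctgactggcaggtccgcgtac

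Most respiratory chain genes had slightly lower levels in Pde2A-/- hearts, few of them passed the test, and only Ndufa4l2 and Cox4i2 changed by more than 1.5-fold. The fitted log2 fold change (Pde2A-/- over Pde2A+/+) was below 0 for 85 of the 93 members tested (91.4%), against 53.0% of all 24177 genes tested. Its median was -0.14 over the members, which is a change of -9.54%, and -0.02 over all genes. The quasi-likelihood test of edgeR, with p-values adjusted over all genes by Benjamini-Hochberg, called 24 members lower and 2 higher at an adjusted p under 0.05. Over all genes, 5.67% were called lower and 8.93% higher, so 25.8% of the members stand against 5.67% in the first direction. The median standard error over all genes was 0.17 on the log2 scale, so small changes are harder to call there. At 10 CPM or more on average, as for 89 members, 11.04% of protein-coding genes were called lower (median standard error 0.07). Of those that are not members, 23.4% were called lower with transcripts under 800 bases and 21.3% between 800 and 1500 bases. Against these shares the members stand out less. The median standard error over the members was 0.06 on the log2 scale, and another 18 members had an adjusted p between 0.05 and 0.1, all of them lower.

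The number of lower calls depended on single hearts. It was 6, 5 and 6 without Pde2A-/- hearts 14, D and 15, and 7, 10, 8 and 13 without Pde2A+/+ hearts 6, 8, H and E. It rose to 43 without Pde2A-/- heart B and to 37 without Pde2A+/+ heart 11. The share of all genes called lower fell too, to 1.73% without heart D. The median of the members stayed between -0.17 and -0.11 in the fits that each left out 1 heart. In those 11 fits, 6 of the 26 calls held throughout, namely the falls of Ndufa5, Ndufaf5, Ndufb8, Cyc1 and Atp5g1 and the rise of Ndufa4l2.

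**Figure D1:**
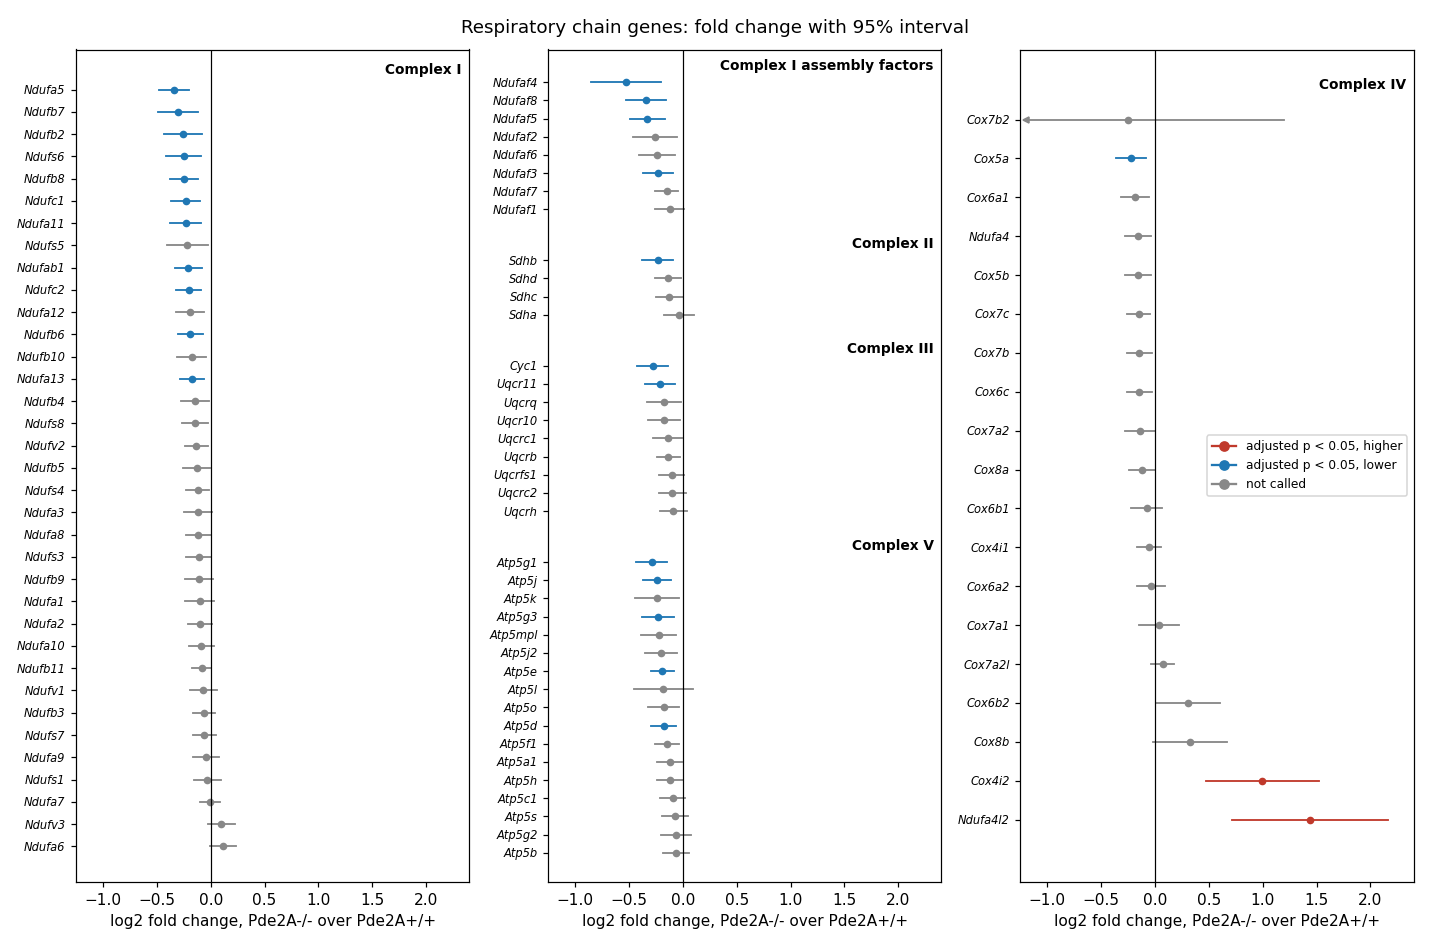
Log2 fold change (horizontal axis, Pde2A-/- over Pde2A+/+) of the genes tested and reported here, grouped by complex, with points for the estimate and lines for the 95% interval. Blue marks the 24 genes called lower, red the 2 called higher and grey the others, and an arrow marks an interval cut at the edge of the plot. Most points lie a little to the left of 0, and the red points, Ndufa4l2 and Cox4i2, lie far to the right.

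The members took 2.10% ± 0.11 (SD, n = 5) of the reads counted on genes in Pde2A-/- hearts and 2.29% ± 0.11 (SD, n = 6) in Pde2A+/+ hearts. The Pde2A-/- values were 2.14%, 2.25%, 2.08%, 2.01% and 1.99% (hearts A, B, 14, D and 15) and the Pde2A+/+ values 2.24%, 2.11%, 2.39%, 2.27%, 2.43% and 2.29% (hearts 7, 11, 6, 8, H and E). The groups overlapped, because Pde2A+/+ heart 11 lay below Pde2A-/- hearts A and B. Heart 15 held the lowest of the 11 values for 41 of the 93 members and heart D for 24. These are levels in whole hearts, in which fewer cells of a type and less RNA per cell cannot be told apart. Beside them, the 18 cardiomyocyte markers had a median log2 fold change of -0.28, with 8 lower (Tcap -0.88 ± 0.13 SE, Ttn -0.51 ± 0.11 SE) and 0 higher. Their part in the result was not tested.

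Complex I takes electrons from NADH and is built of a catalytic core surrounded by accessory subunits. Of its 36 tested subunits 34 had a fold change below 0, and 11 (30.6%) were called lower and 0 higher. The median log2 fold change was -0.13. Called lower were 5.67% of all genes, and 11.04% of protein-coding genes that averaged 10 CPM or more. All 11 belonged to the 29 accessory subunits (37.9%, median -0.15). The 7 nuclear core subunits gave 0 calls and a median of -0.07, with 0 of the 7 above 0. At the shares over other genes, 0 calls among 7 genes tells little. The main transcripts of the core subunits have 983 to 2661 bases, and the part of length in this difference was not tested.

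Ndufa5 (ENSMUSG00000023089, chr6:24518666-24528013, minus strand), an accessory subunit of the arm of complex I that reaches into the matrix, had the smallest adjusted p of the members. Its levels were 75.8, 83.5, 74.3, 69.4 and 66.5 CPM in Pde2A-/- hearts A, B, 14, D and 15, and 90.7, 84.4, 96.3, 96.8, 101.7 and 92.6 CPM in Pde2A+/+ hearts 7, 11, 6, 8, H and E. All 5 Pde2A-/- hearts lay below all 6 others, although heart B was within 1 CPM of heart 11. The log2 fold change was -0.34 ± 0.06 (SE), with an edgeR adjusted p of 0.0045.

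Ndufb7 (ENSMUSG00000033938), an accessory subunit of the membrane arm that faces the intermembrane space, had 109, 124, 100.2, 94.5 and 84.4 CPM in the Pde2A-/- hearts in the same order. The Pde2A+/+ hearts had 122, 111, 134, 130.3, 135 and 128 CPM. Heart B was the only Pde2A-/- heart inside the range of the others. Its log2 fold change was -0.31 ± 0.09 (SE), with an edgeR adjusted p of 0.034 that lay between 0.057 and 0.088 without any of hearts 14, D, 15, 6, 8, H or E. The accessory subunits Ndufb2 (-0.26 ± 0.08 SE), Ndufs6 (-0.25 ± 0.08 SE) and Ndufb8 (-0.24 ± 0.06 SE) followed. The other 6 called subunits, Ndufc1, Ndufa11, Ndufab1, Ndufc2, Ndufb6 and Ndufa13, fell by 0.17 to 0.23 on the log2 scale. Ndufab1 is also the mitochondrial acyl carrier protein. Ndufc2 lies 4.01 Mb from Pde2a on chromosome 7, the nearest of the members to the targeted locus. The 2 subunits with a fold change above 0, Ndufa6 (0.11, 95% interval -0.01 to 0.23) and Ndufv3 (0.10, -0.03 to 0.23), were not called.

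The assembly factors of complex I, which help to build it without staying in it, had a median log2 fold change of -0.25, the lowest among the complexes of the members. All 8 had a fold change below 0 and 4 (50%) were called lower, Ndufaf4, Ndufaf8, Ndufaf5 and Ndufaf3. Called lower were 5.67% of all genes, and 11.04% of protein-coding genes that averaged 10 CPM or more. Of the 93 members tested, 4 had values that did not overlap between the genotypes. These were Ndufaf8, Ndufaf5 and Ndufaf3, beside Ndufa5. This state was seen in either direction for 8.49% of all genes tested, a larger share than among the members. Levels of the assembly factors are low next to the subunits. The highest of them per kilobase, Ndufaf2 (29.4 CPM per kb in Pde2A+/+), was not called (log2 fold change -0.26 ± 0.10 SE, edgeR adjusted p 0.088).

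Ndufaf4 (ENSMUSG00000028261, chr4:24898083-24905001, plus strand), which takes part in an early assembly step, had the largest fall of all members. Pde2A-/- hearts A, B, 14, D and 15 had 48.5, 50.3, 33.9, 33.4 and 25.3 CPM. Pde2A+/+ hearts 7, 11, 6, 8, H and E had 51.9, 49.8, 63.5, 59.1, 56.2 and 51.5 CPM. Hearts A and B lay at the lower edge of the Pde2A+/+ range and hearts 14, D and 15 well below it. The log2 fold change was -0.53 ± 0.15 (SE), with an edgeR adjusted p of 0.034. Without any of hearts 14, D, 15, 6, 8 or H that p lay between 0.054 and 0.089.

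Ndufaf8 (ENSMUSG00000078572) had 14.4, 13.9, 12.3, 11.6 and 11.1 CPM in the Pde2A-/- hearts, in the order used above, and 16.3, 14.5, 17.6, 17.8, 15.4 and 14.5 CPM in the Pde2A+/+ hearts. Its log2 fold change was -0.34 ± 0.09 (SE), with an edgeR adjusted p of 0.021 that was 0.055, 0.059 and 0.051 without hearts 14, D and 15. Ndufaf5 (ENSMUSG00000027384), which modifies and stabilises the core subunit Ndufs7, had 23.9, 22.2, 20.3, 18.8 and 20.2 CPM in the Pde2A-/- hearts. The Pde2A+/+ hearts had 25.7, 24.1, 28.3, 28.5, 28.8 and 23.9 CPM, so that heart A and heart E almost met. The log2 fold change was -0.33 ± 0.08 (SE), with an edgeR adjusted p of 0.013.

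**Figure D2:**
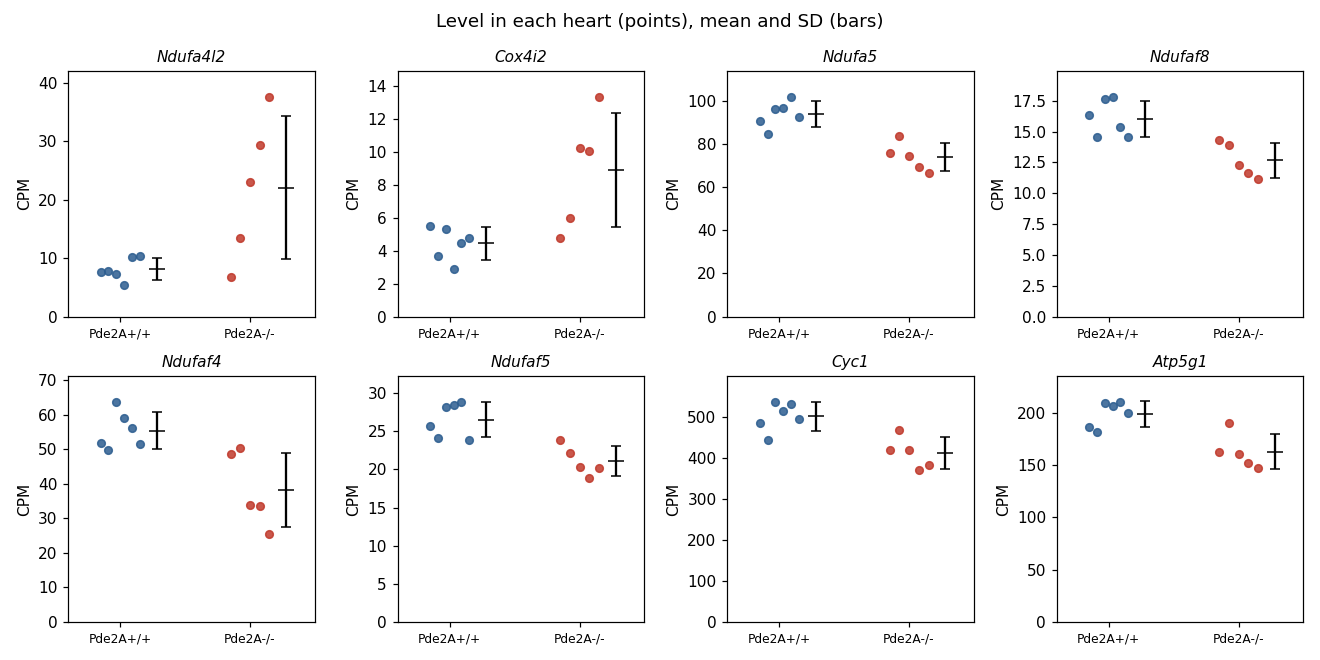
Level in CPM (vertical axis, from 0) of 8 genes in each heart, with Pde2A+/+ in blue and Pde2A-/- in red in the order of the text, and bars for the mean and SD. Ndufa4l2 and Cox4i2 spread widely among the Pde2A-/- hearts, while Ndufa5, Ndufaf8 and Ndufaf5 are lower in all 5 of them.

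Complex II, the succinate dehydrogenase shared with the citric acid cycle, had a fold change below 0 for all 4 subunits. Of these 1 (25%) was called lower, against 5.67% of all genes. Sdhb, the iron-sulfur subunit, was lower, at 262 ± 27 CPM (SD, n = 5) against 309 ± 19 CPM (SD, n = 6), a log2 fold change of -0.23 ± 0.07 (SE, edgeR adjusted p 0.036). That call was lost without any of hearts 14, D, 15, 7, 6, 8, H or E, with an adjusted p up to 0.094. The membrane anchors Sdhd (-0.14 ± 0.06 SE) and Sdhc (-0.12 ± 0.06 SE) were not called. Sdha, the flavoprotein and the highest of complex II per kilobase (281 CPM per kb in Pde2A+/+, next to Sdhd at 280.2), had a log2 fold change of -0.04 with a 95% interval from -0.18 to 0.10.

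In complex III all 9 genes had a fold change below 0 and 2 (22.2%) were called, Cyc1 and Uqcr11. Called lower were 5.67% of all genes, and 11.04% of protein-coding genes that averaged 10 CPM or more, so 2 calls among 9 genes tell little. Cyc1 (ENSMUSG00000022551, chr15:76343523-76346260, plus strand) encodes cytochrome c1, which passes electrons on to cytochrome c. It had 420.3, 469, 419, 369.9 and 383 CPM in Pde2A-/- hearts A, B, 14, D and 15 and 485, 444, 536, 515, 532 and 495 CPM in Pde2A+/+ hearts 7, 11, 6, 8, H and E. Heart B alone reached into the range of the other genotype. Its log2 fold change was -0.28 ± 0.07 (SE), with an edgeR adjusted p of 0.016. The small subunit Uqcr11 fell by 0.21 on the log2 scale. Uqcrh, the hinge protein and the highest of complex III per kilobase (575 CPM per kb in Pde2A+/+), had -0.09 ± 0.06 (SE) and was not called.

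In complex V, ATP synthase, all 17 genes tested had a fold change below 0 and 5 (29.4%) were called lower, with a median of -0.18. Called lower were 5.67% of all genes, and 11.04% of protein-coding genes that averaged 10 CPM or more. The called genes were Atp5g1, Atp5j, Atp5g3, Atp5e and Atp5d. Atp5g1 and Atp5g3 encode the same mature c subunit of the rotor, as does Atp5g2. Atp5g1 (ENSMUSG00000006057) had 163, 191, 161, 152 and 147 CPM in the Pde2A-/- hearts and 187, 182, 209, 207, 210.3 and 199.6 CPM in the Pde2A+/+ hearts, with heart B again inside the other range. Its log2 fold change was -0.29 ± 0.07 (SE), with an edgeR adjusted p of 0.015. Atp5g3, with 1162 CPM per kb the highest of the c subunit genes as counted in Pde2A+/+ hearts, fell by 0.23 on the log2 scale. Atp5g2 had -0.07 ± 0.06 (SE) and was not called. Of the 50-base windows of its transcript, 87.4% also occur in other genes, so its count and its rank are uncertain. Atp5j, a subunit of the stalk, fell by 0.24. Atp5b, the catalytic beta subunit and the highest of all members per kilobase (2137 CPM per kb in Pde2A+/+), had a log2 fold change of -0.06 with a 95% interval from -0.18 to 0.05.

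**Figure D3:**
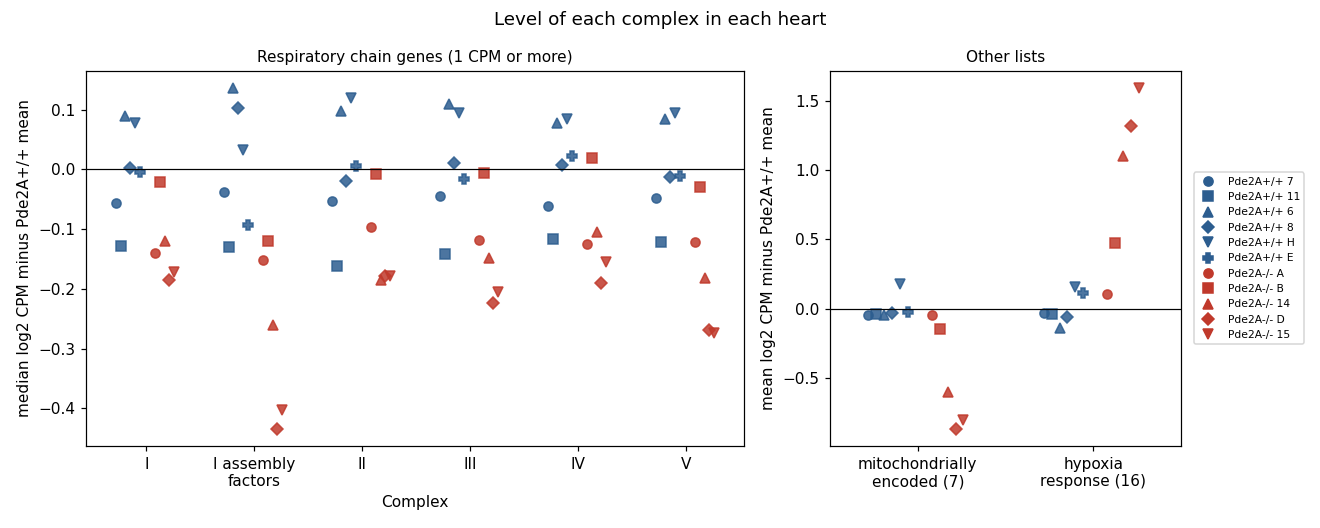
Left, for each complex, the median over its genes of log2 CPM minus the Pde2A+/+ mean, with 1 symbol per heart. Right, the mean of the same quantity for the 7 mitochondrially encoded subunits tested and 16 hypoxia response genes, on a wider axis. Pde2A-/- hearts 14, D and 15 lie lowest for the assembly factors, complex V and the mitochondrially encoded subunits and highest for the hypoxia genes.

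Complex IV, cytochrome c oxidase, held the only members called higher, the subunit Cox4i2 and the related protein Ndufa4l2. Of its 19 genes tested, 13 had a fold change below 0 and 6 above, 1 (5.26%) was called lower and 2 higher. Over all genes, 5.67% were called lower and 8.93% higher, and these counts lie near those shares. Among protein-coding genes that averaged 10 CPM or more, 11.04% were called lower. The lower gene was Cox5a (-0.22 ± 0.07 SE), of whose 50-base windows 32.0% occur in other genes. Its call was lost without any of the same 8 hearts as for Sdhb, with an adjusted p up to 0.10. Cox4i1, the ubiquitous form of subunit 4 and the highest of the complex per kilobase (1126 CPM per kb in Pde2A+/+), had a log2 fold change of -0.06 with a 95% interval from -0.17 to 0.05.

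Cox4i2 (ENSMUSG00000009876, chr2:152754173-152765037, plus strand) is the other form of subunit 4, known from lung and from cells at low oxygen. Its levels were 4.78, 6.00, 10.2, 10.02 and 13.3 CPM in Pde2A-/- hearts A, B, 14, D and 15, and 5.48, 3.70, 5.32, 2.87, 4.47 and 4.78 CPM in Pde2A+/+ hearts 7, 11, 6, 8, H and E. All Pde2A-/- hearts but A lay above the Pde2A+/+ range. The log2 fold change was 0.996 ± 0.244 (SE), a 1.99-fold rise with an edgeR adjusted p of 0.019. Without heart 14, D or 15 that p was 0.051 to 0.053.

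Ndufa4l2 (ENSMUSG00000040280, chr10:127514967-127517154, plus strand) resembles Ndufa4, a subunit first assigned to complex I and now to complex IV, and is known as a target of the hypoxia-inducible factor. It had 6.81, 13.5, 23.0, 29.4 and 37.5 CPM in Pde2A-/- hearts A, B, 14, D and 15, and 7.64, 7.85, 7.23, 5.43, 10.1 and 10.3 CPM in Pde2A+/+ hearts 7, 11, 6, 8, H and E. Heart A lay within the Pde2A+/+ range and the other 4 above it. The log2 fold change was 1.44 ± 0.34 (SE), a 2.72-fold rise with an edgeR adjusted p of 0.015, and the 95% interval ran from 0.72 to 2.16. Ndufa4 itself had -0.16 ± 0.06 (SE) and was not called (adjusted p 0.068 by edgeR).

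Over the 11 hearts, the genes whose log2 CPM was most like that of Ndufa4l2, among 14023 others with a mean of at least 1 CPM, were Ndrg1 (Pearson's r = 0.99), Pygl (0.99) and Kif1a (0.98). Ndrg1, a stress-responsive gene, also has the largest change of the hypoxia list below. Pygl encodes the liver form of glycogen phosphorylase and Kif1a a kinesin motor. The 11 points include both genotypes, and these values only describe likeness.

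The forms that striated muscle uses were not called. Cox6a2, Cox7a1 and Cox8b had log2 fold changes of -0.04 (95% interval -0.17 to 0.09), 0.04 (-0.15 to 0.22) and 0.32 (-0.02 to 0.67). Their ubiquitous partners Cox6a1, Cox7a2 and Cox8a had -0.18, -0.14 and -0.12 and were not called either. Cox6b2, a form known from testis, had 0.30 ± 0.14 (SE) and its partner Cox6b1 -0.08 ± 0.07 (SE). Cox7a2l, which links complexes III and IV, had 0.07 ± 0.05 (SE), and Cox7b -0.14 ± 0.05 (SE). Cox7b2 was below 1 CPM in every heart and carries no information.

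Within each pair, the share of the alternative form was compared as its part of the pair's CPM per kilobase. Ndufa4l2 made up 1.72%, 3.05%, 5.56%, 7.48% and 9.51% of the pair with Ndufa4 in Pde2A-/- hearts A, B, 14, D and 15, against 1.19% to 2.32% in Pde2A+/+ hearts. Cox4i2 made up 0.624%, 0.714%, 1.26%, 1.27% and 1.65% of the pair with Cox4i1, against 0.362% to 0.691%. In both pairs all Pde2A-/- hearts except A exceeded the Pde2A+/+ range, and the common form still made up more than 90% of the RNA in every heart. Cox6a2 made up 27.7% ± 1.7 (SD, n = 5) in Pde2A-/- and 25.7% ± 1.4 (SD, n = 6) in Pde2A+/+ hearts. Cox7a1 made up 25.8% ± 1.3 against 23.5% ± 1.6, Cox8b 12.7% ± 2.3 against 9.55% ± 2.0, and Cox6b2 2.94% ± 0.46 against 2.3% ± 0.49. For these last 4 pairs the genotypes overlapped, with 2 Pde2A-/- hearts above the Pde2A+/+ range in each. The shares were not tested.

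**Figure D4:**
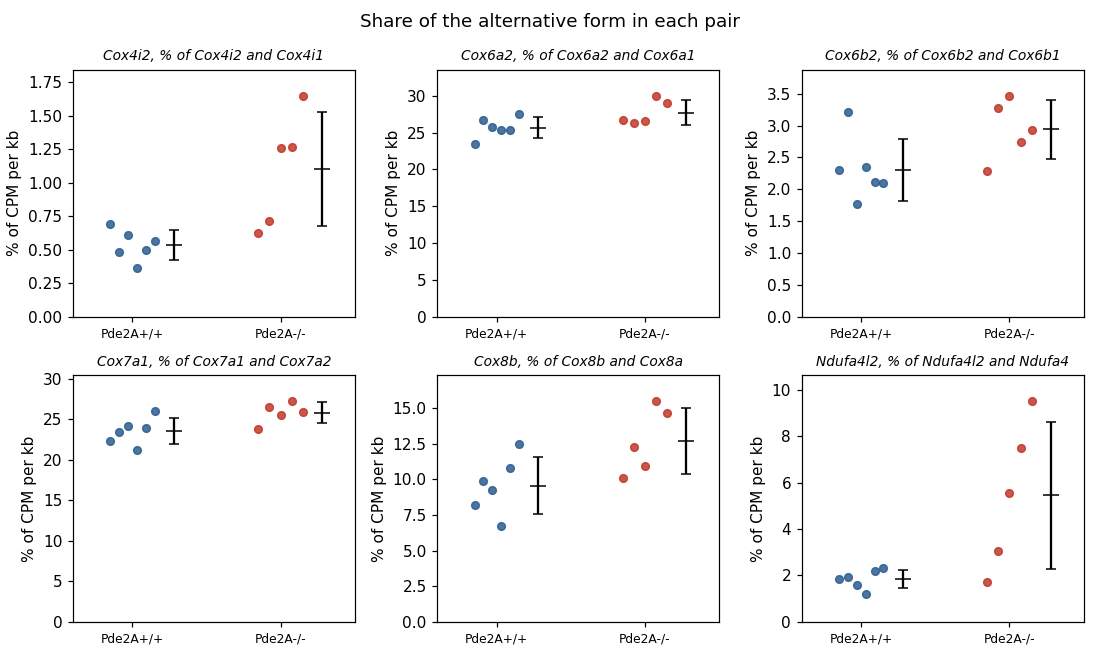
Share of the alternative form in each of 6 pairs (vertical axis, percent of the pair's CPM per kilobase, from 0), with points for hearts in the order of the text and bars for the mean and SD. The shares of Cox4i2 and Ndufa4l2 separate hearts 14, D and 15 from all Pde2A+/+ hearts, while the other pairs overlap.

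Across complexes the hearts kept a like order. Pde2A+/+ heart 6 was the highest or next to the highest, and heart 11 the lowest of its genotype, for all 6 groups. Pde2A-/- heart B was the highest of its genotype for all 6 groups. For the assembly factors, the median of log2 CPM minus the Pde2A+/+ mean was -0.15, -0.12, -0.26, -0.43 and -0.40 in Pde2A-/- hearts A, B, 14, D and 15, and -0.13 to 0.14 in Pde2A+/+ hearts. For complex V it was -0.12, -0.03, -0.18, -0.27 and -0.27, against -0.12 to 0.09. For complex IV it was -0.12, 0.02, -0.11, -0.19 and -0.15, against -0.12 to 0.08. The genotypes overlapped in each of the 6 groups.

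The subunits encoded in mitochondrial DNA could be followed for 7 of 13 genes, of which 4 (57.1%) were lower and 0 higher. Called lower were 5.67% of all genes, and 11.04% of protein-coding genes that averaged 10 CPM or more. The median log2 fold change of the 7 was -0.51. The largest changes were those of mt-Nd1 (-0.67 ± 0.20 SE, edgeR adjusted p 0.040) and mt-Nd2 (-0.65 ± 0.18 SE, adjusted p 0.030), both core subunits of complex I. Their mean log2 CPM minus the Pde2A+/+ mean was -0.05, -0.15, -0.60, -0.87 and -0.80 in Pde2A-/- hearts A, B, 14, D and 15, and -0.05 to 0.18 in Pde2A+/+ hearts. The other 6 (mt-Nd3, mt-Nd4l, mt-Co2, mt-Co3, mt-Atp6 and mt-Atp8) had 0 to 3 reads over all hearts. These RNAs are known to be abundant in heart, so the tables do not measure these 6. Whether the counts of the other 7 hold all their reads was not tested.

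Other mitochondrial lists gave calls that were mostly lower. Over all genes 5.67% were called lower, and among protein-coding genes that averaged 10 CPM or more 11.04%. Of 36 other assembly factors 10 (27.8%) were lower and 1 higher (median -0.16), with Sco1, a copper carrier for complex IV, at -0.35 ± 0.11 (SE) and Coa4 at 0.37 ± 0.07 (SE). Of 15 genes for electron carriers and coenzyme Q synthesis 5 (33.3%) were lower and 0 higher (median -0.12), led by Pdss1, which starts the coenzyme Q side chain (-0.46 ± 0.10 SE), and Cycs, cytochrome c (-0.40 ± 0.09 SE). Of 15 membrane and import genes 4 (26.7%) were lower and 0 higher (median -0.14), among them Timm50 (-0.29 ± 0.06 SE) and Tomm40 (-0.23 ± 0.07 SE). Of 13 citric acid cycle genes 1 (7.69%) was lower, Idh3a (-0.21 ± 0.06 SE), and 0 higher (median -0.09).

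Among 17 regulators of mitochondrial biogenesis 3 were higher and 1 (5.88%) lower (median -0.07), against 8.93% higher and 5.67% lower over all genes. Esrrb, an estrogen-related receptor, rose by 0.68 ± 0.17 (SE, edgeR adjusted p 0.019) and Ppargc1a, the coactivator PGC-1alpha, by 0.62 ± 0.19 (SE, adjusted p 0.050). Named because so few were called, Ppargc1b rose by 0.54 ± 0.17 (SE), and Polrmt, the mitochondrial RNA polymerase, had -0.25 ± 0.07 (SE).

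Genes known to respond to low oxygen differed in the other direction, with 14 of 16 higher and 0 lower and a median log2 fold change of 0.97. Ndrg1 (2.31 ± 0.45 SE) and Egln3, a prolyl hydroxylase of the hypoxia-inducible factor (1.98 ± 0.35 SE), led the list. Its mean log2 CPM minus the Pde2A+/+ mean was 0.11, 0.48, 1.10, 1.31 and 1.59 in Pde2A-/- hearts A, B, 14, D and 15, and -0.14 to 0.16 in Pde2A+/+ hearts. The order of the Pde2A-/- hearts is that of Ndufa4l2, and the part of these genes' response in the members' levels was not tested.

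Markers of other cells also differed. Over all genes, 8.93% were called higher and 5.67% lower. Of the 9935 protein-coding genes that averaged 10 CPM or more, 1416 were called higher and 1097 (11.04%) lower. In lists of 8 to 14 markers, 1 or 2 calls in a direction tell little beside these shares. Of 12 macrophage markers 10 were higher and 0 lower (Fcgr3 1.43 ± 0.18 SE, Fcgr1 1.19 ± 0.13 SE), with a summed level of 284 to 355 CPM in Pde2A-/- and 149 to 218 CPM in Pde2A+/+ hearts. Of 14 erythroid markers 5 were higher and 1 lower (Hemgn 4.94 ± 0.38 SE, Klf1 4.10 ± 0.32 SE, and the adult globin Hbb-bt as the fall, -1.43 ± 0.31 SE), with summed levels of 6144 to 9529 CPM and 4871 to 16698 CPM. Of 10 endothelial markers 4 were higher and 1 lower (Cldn5 -0.79 ± 0.11 SE, Emcn 0.50 ± 0.09 SE), with 1627 to 1862 CPM and 1311 to 1571 CPM. Of 8 fibroblast markers 3 were higher and 0 lower (Postn 0.42 ± 0.08 SE, Tcf21 0.30 ± 0.07 SE), with 7097 to 11494 CPM and 5990 to 11079 CPM. Of 9 smooth muscle and pericyte markers 0 were higher and 2 lower (Cnn1 -0.38 ± 0.11 SE, Kcnj8 -0.31 ± 0.10 SE), with 1642 to 1910.5 CPM and 1675 to 2387 CPM. Whether cell composition moved the members was not tested.

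Most respiratory chain genes have short transcripts, so the calls were also counted by transcript length. Among protein-coding genes that averaged 10 CPM or more, with a main transcript under 800 bases, 28.2% of 39 members and 23.4% of 209 other genes were called lower, with median log2 fold changes of -0.15 and -0.10. Between 800 and 1500 bases, these were 28.6% of 28 members and 21.3% of 1009 others, with medians of -0.15 and -0.09. Between 1500 and 3000 bases, they were 5.88% of 17 members and 12.8% of 3147 others, with medians of -0.10 and -0.03. At 3000 bases and above, 4 of 5 members (Ndufaf4, Ndufb2, Ndufab1 and Atp5g1) and 7.39% of 5481 others were called lower, with medians of -0.26 and 0.02. Ndufb2, Ndufab1 and Atp5g1 are placed here by transcripts of 4371, 3479 and 4715 bases, the longest principal ones annotated. Whether these hearts mainly use those transcripts was not tested, so for the members this longest class tells little about length. Over all lengths, 11.04% of the protein-coding genes at this level were called lower. The part of transcript length in the members' result was not tested.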

How the data were processed

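The authors sequenced stranded poly(A) libraries (NEBNext Ultra II, single-end reads, NextSeq 500), aligned them with STAR to GRCm38 (mm10) and deposited unnormalized read counts per gene for each heart. The STAR version is not given in the sources used here. Reads on the gene's own strand were used. Reads that overlap several genes or map to several places are not counted, which lowers genes with overlapping neighbours or near-identical copies. Of the reads, 19.6% to 22.4% lay on no single gene and were left out. Symbols and positions came from GENCODE M21, and levels per kilobase use the longest principal transcript, which need not be the main one in these hearts.

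After removal of genes under 10 counts in total, the genotypes were compared by edgeR 4.0.16 (R 4.3.3) with TMM scaling and its quasi-likelihood test, and p-values were adjusted by Benjamini-Hochberg over all genes. Calls needed an adjusted p under 0.05. The SE is the log2 fold change divided by the square root of its F statistic, and log2 CPM used a prior count of 2. The code was also run on simulated counts, with changes larger than most of those called here. That run does not bear on changes as small as most of the called falls. Alternatives were DESeq2 1.42.0, other filters and scalings, the hearts' naming style (letter or number) as a covariate, and fits without single hearts. The test sets the genotype difference against the variation between these hearts. Nothing states that hearts came from separate litters, and littermates would not be independent, so p-values could be too small. Of the members tested, 17 share over 20% of their 50-base windows with other genes and their counts are uncertain, 3 of the called falls (Ndufb6, Ndufa13 and Cox5a) among them. Promoters were matched by RefSeq symbol or Ensembl identifier. The members, complexes, lists and naming rule (per complex the highest member per kilobase, the 12 largest calls each way, the alternative forms, complex II with Cyc1, and up to 2 calls per other list) were chosen with earlier results of these data known. Results of 1 item are not reported here.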

Additional observations from a re-analysis of the deposited data

Results flagged for a closer look

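Among 100 groups of hearts examined for a single value far from the rest (the named genes and the mean of each complex, in each genotype), 1 stood apart by Dixon's ratio, and chance gives about 1 in 20. Cox7a1, the striated muscle form of subunit 7a, had 57.5 CPM in Pde2A-/- heart B against 43.5 to 47.2 CPM in the other Pde2A-/- hearts.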

How the results depend on the processing

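The median log2 fold change over the members and that of each complex kept its sign, and moved by less than the spread between hearts (SD 0.08), under every alternative run. The number of members called lower, 24 at first, was 40 with DESeq2, 39 with filterByExpr, 1 at an adjusted p under 0.01 and 0 with a fold change of at least 1.5, and it ranged from 5 to 43 in fits without 1 heart. The number called higher, 2 at first, was 0 at an adjusted p under 0.01, 1 with subunits only and 1 to 3 in fits without 1 heart. DESeq2 kept all 26 calls and added 16. Without the filter on counts, 20 members were called lower and 22 of the 26 calls were kept. That setting lost the falls of Atp5g3, Atp5d, Uqcr11 and Ndufa13. With reads of both strands, 23 were called lower and 24 of the 26 calls were kept, without the falls of Ndufb6 and Ndufb2. Hearts are named by letters or by numbers in both genotypes, and with this naming style as a covariate 31 members were called lower, with all 26 calls kept and 7 added. For single genes, 137 values lost and 13 gained their call under an alternative, and none changed sign among the called. The largest shift of the median log2 fold change of all genes under an alternative was 0.0133. No paired analysis was possible because the genotypes share no replicate number. All members tested but Cox7b2 had at least 107 reads in every heart.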
